A study of Mus musculus with 6 samples.

Results

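Glycosaminoglycans are long sugar chains, and most of them are built on the core proteins of proteoglycans. The 40 genes described here encode the enzymes and transporters that build, sulfate and trim these chains. They were taken by gene symbol from a table of 10189 genes. The symbols cover chondroitin and heparan chain synthesis, sulfotransferases, hyaluronan synthases, the supply of sugar and sulfate donors, and enzymes that edit or cleave the chains. Of 68 protein-coding genes in the GENCODE M21 annotation that carry such a symbol, 40 have a row in the table and 28 have no row in the table used here.

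RNA-seq of total RNA was made from chondrocytes, the cells of cartilage, of C57BL/6 mice aged 5 weeks. The knock-out group (KO, MiR-34a -/-) lacked both copies of Mir34a in all tissues, and the wild-type group carried the normal gene. Both groups bear the allele name Mir34atm1.2 Mrl in the labels, neither was treated, and each has 3 samples. Cartilage of hips and knees was pooled and digested with collagenase. The released cells spent about 1 week in culture by the labels, and about 10 days by the series text, before their RNA was taken. Each title holds a code of its own and a replicate number, but the labels do not say whether a code stands for an animal, a pool or a culture. Samples are numbered here as at the end of the titles, which differs from the codes: the code of the sample numbered KO 1 ends in KO2, and the table column of the one numbered KO 3 ends in KO1. The p-values therefore reflect how far these 6 libraries scatter, and part of that scatter may be technical.

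In cartilage the main proteoglycan, aggrecan, carries many chains of chondroitin sulfate and keratan sulfate, whose negative charge draws in water and gives the tissue its stiffness under load. A chain of chondroitin, dermatan or heparan sulfate starts with xylose on a serine of the core protein, is extended through a short linkage region, and is then polymerized and sulfated in the Golgi with the sulfate donor PAPS. Hyaluronan is the exception. It is made at the cell membrane by its own synthases, carries no core protein and is not sulfated.

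Values are TMM-normalized CPM, read counts of a gene scaled by the authors to a common library size. From the steps between these values whole reads were recovered: 989217 to 5266617 per library, of which the 40 genes held 1807 to 5711. Wild type 1 had 59.1% of its reads on the ribosomal RNA precursor Rn45s. Genes annotated opposite an abundant gene held more reads than that gene: Snx22 was 28.0 to 63.5 times Ppib, and Tsix 8.12 to 16.5 times Xist. Which strand was counted is not stated in these sources. All levels below are therefore uncertain in the strand they count, and the part of this in the results was not tested. Among the 40 genes, 8 share exon bases with a gene on the opposite strand (Has2, Has3, Chsy1, Chpf2, Fam20b, Sulf2, Hs6st1 and B4galt7) and 32 do not. In these bulk samples, fewer cells of a type and less RNA per cell cannot be told apart.

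The cultures held cartilage RNA together with RNA of other cells. The gene of the main cartilage collagen, Col2a1, had 801 to 1267 CPM in wild type and 1159 to 1985 CPM in KO, and 16 of 20 chondrocyte markers had a row, none at 0. Their summed level was 2556 to 3896 CPM in wild type and 3882 to 7052 CPM in KO, highest in KO 1. The 14 of 14 macrophage and leukocyte markers with a row, none at 0, summed to 5236 to 6196 CPM in wild type and to 1045, 15114 and 3496 CPM in KO 1, 2 and 3. Mural markers (7 of 9) summed to 572 to 732 CPM in wild type and 274 to 484 CPM in KO. The 8 of 8 proliferation genes summed to 1489 to 1751 and 780 to 1078 CPM. Fibroblast markers (9 of 10) summed to 7446 to 8636 CPM in wild type and 5147 to 8075 CPM in KO. Osteoblast markers (7 of 8) summed to 5344 to 7382 CPM in wild type and to 6720, 19947 and 7000 CPM in KO 1, 2 and 3. Spp1 alone had 4689 to 6321 CPM in wild type and 2806, 17015 and 3093 CPM in KO 1, 2 and 3. KO 2 was the highest library for 1 of the 7. Ibsp had 526 to 1659 CPM in wild type and 3620, 2628 and 3614 CPM in KO, and Bglap and Bglap2 were at 0 in wild type. Neutrophil markers (4 of 7) summed to 187 to 403 and 76.5 to 217 CPM, with S100a8 and S100a9 at 0 in KO, and adipocyte markers (3 of 5) to 107 to 232 and 145 to 299.7 CPM. In every row of the table the second-highest of the 6 values was 7.35 CPM or more. Bglap, Bglap2, S100a8 and S100a9 therefore have rows only through the genotype in which they were not at 0. Their zeros are not read as a result. Of 6 endothelial markers, Pecam1 and Cdh5 had a row, and both were at 0 in KO 1 and KO 3. The part of these cell types in the results below was not tested.

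The deleted gene encodes miR-34a-5p, a microRNA that represses transcripts with a match to its seed. For that reason its sequence is shown first, with the seed (bases 2 to 8) in capitals, from RefSeq (GRCm38.p6, chr4:150068473-150068494, plus strand), followed by the stretches of 22 bases in the 3′ UTRs of 6 glycosaminoglycan genes that hold a match to the whole seed, with the match CACTGCC in capitals.
miR-34a-5p: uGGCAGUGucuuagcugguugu
Chpf2: tgtctgccggcttcCACTGCCt
B3gat3: agcctgccatgtggCACTGCCc
Papss2: actacacataccatCACTGCCc
Xylt1: gccagtttgacaagCACTGCCc
Hs6st1: tatgctttctgatgCACTGCCc
Glce, upstream: tgctgttgcttttcCACTGCCt
Glce, downstream: catgtatggaggaaCACTGCCa
These lie in transcripts of GENCODE M21 (GRCm38, which is mm10) at chr5:24592549-24592570 (Chpf2, plus strand), chr19:8927001-8927022 (B3gat3, plus), chr19:32666066-32666087 (Papss2, plus), chr7:117668096-117668117 (Xylt1, plus), chr1:36104845-36104866 (Hs6st1, plus), and chr9:62058155-62058176 and chr9:62057919-62057940 (Glce, minus). The longest 3′ UTR of a protein-coding transcript was searched on the transcript strand. The downstream Glce match is the one followed by an A, the base that faces the first base of the microRNA. With Ndst1, 7 of 38 glycosaminoglycan genes with an annotated 3′ UTR of at least 20 bases held a match (18.4%), against 17.8% of all 9631 such genes of the table. A match is a description of these letters and not of binding.

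Levels between genes were compared as CPM per kilobase of exon. Over all 6 libraries Dse, which encodes the epimerase that turns chondroitin into dermatan chains, had the highest mean (34.8 CPM per kilobase). It was followed by the hyaluronan synthase gene Has3 (22.0), by Papss2, which makes the sulfate donor (21.4), by the chain-starting enzyme gene Csgalnact1 (18.1) and by Impad1, a Golgi phosphatase gene (17.8). The 10 measured genes of heparan sulfate polymerization and modification lay lower, between 1.90 (Hs6st1) and 6.49 (Ext2) CPM per kilobase. Chst2 had the lowest mean (0.818).

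**Figure D1:**
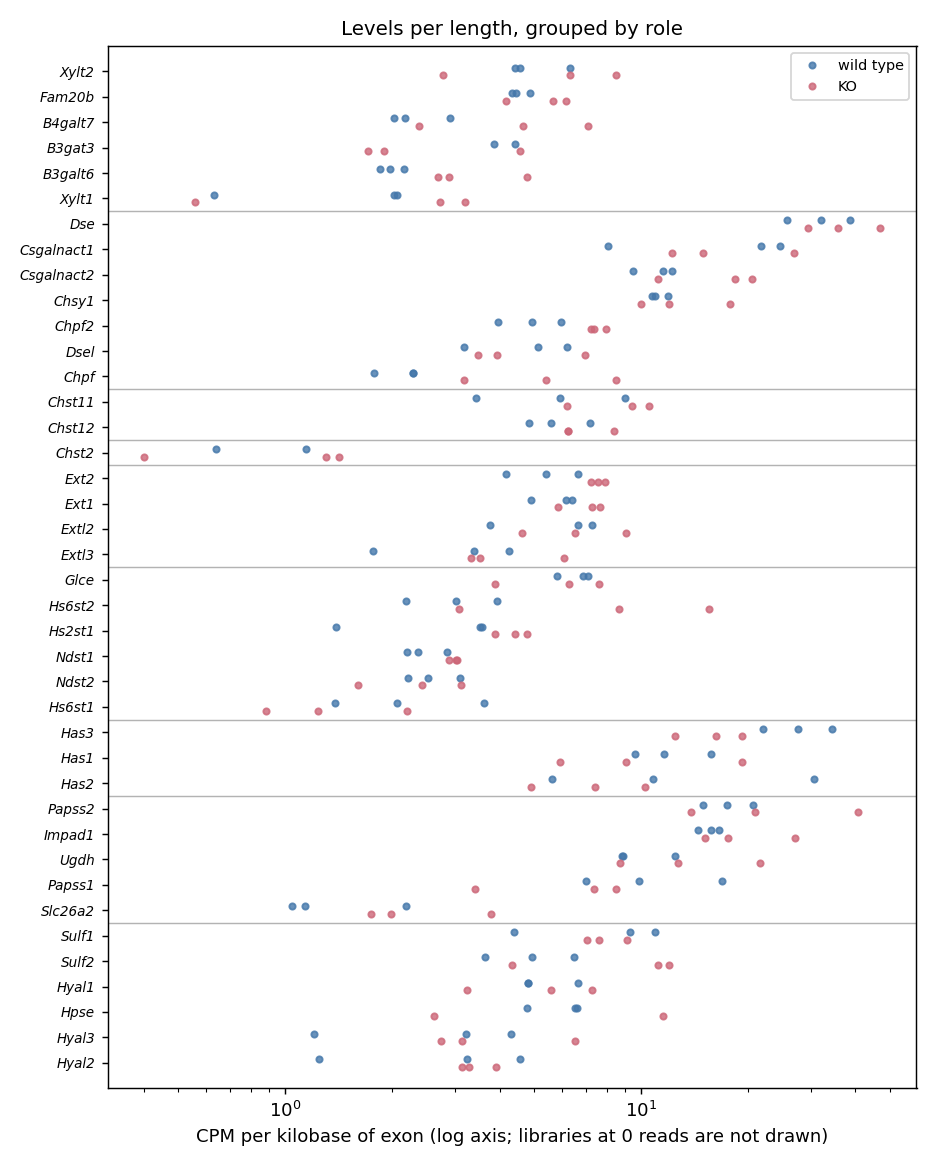
CPM per kilobase of exon (log axis) for each of the 40 genes, grouped by role, with 1 point per library (blue wild type, red KO). Dse, Has3 and Papss2 lie highest, Chst2 lowest, and for most genes the points of the genotypes overlap.

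The comparison of KO with wild type asked which of these genes differ in chondrocytes without miR-34a. No gene of the 40 passed: limma called 0 higher and 0 lower at an adjusted p below 0.05, with a background of 0.0% of all genes higher and 0.00981% lower. At an unadjusted p below 0.05, 3 were higher (Chpf, Hs6st2 and Chpf2; background 4.64%) and 1 lower (Has3; background 6.4%). DESeq2 on the recovered reads (background 0.412% higher and 0.716% lower) called 0 of the 40, with 2 higher and 1 lower at an unadjusted p below 0.05. EdgeR (0.0% and 0.0196%) also called 0, with 4 higher and 1 lower at that unadjusted p, and so did limma-voom (0.0% and 0.00981%), with 1 higher and 2 lower. Single libraries moved these limma counts: 1 was higher without wild type 2 or without KO 1 and 5 without KO 2, while 2 were lower without wild type 1 or wild type 2 and 3 without KO 2. By the mean on the log2(CPM + 0.5) scale, 30 of 40 were higher in KO (75%), against a background of 51.4%. This scale is meant wherever a mean is called higher or lower below, and 3 of the 30 (B3gat3, Csgalnact1 and Sulf1) had a lower mean in KO in CPM itself, with ratios of 0.988, 0.996 and 0.965. The median log2 fold change of the 40 genes was 0.28, against 0.02 over all genes. Of the 32 genes with no exon opposite another gene 25 were higher (78.1%, median 0.30, against 55.1% and 0.07 over all such genes), and of the 8 with one 5 were (median 0.20, against 44.9% and −0.07). KO libraries lay above every wild-type library for 6 of 40 genes (background 8.82%) and below for 1 of 40 (background 9.57%), shares of 15% and 2.5%. The count above was 14 without KO 2 and 10 without KO 3, and the count below was 2 or 3 without KO 1, KO 2, wild type 1 or wild type 2. Leaving out a library can only keep or raise a count of this kind, so these larger counts are no result about the genes. The backgrounds above hold for all 6 libraries, and no share of all genes is given here for fewer libraries, also not at the unadjusted p.

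The highest values of the 40 genes were not spread evenly over the libraries. KO 1 was the highest of the 6 libraries for 17 of 40 genes (42.5%, against 20.7% of all genes), KO 2 for 11 and KO 3 for 6, while wild type 1, 2 and 3 were highest for 2, 1 and 3. KO 1 also had the highest summed chondrocyte markers and the lowest summed macrophage markers, as given above. Without KO 1, 28 of 40 were higher and the median log2 fold change was 0.18. Wild type 2 lay lowest, with a median deviation from the gene means of −0.25 on the log2 scale, against 0.33 in KO 1. Without wild type 2, 27 of 40 were higher with a median of 0.23.

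**Figure D2:**
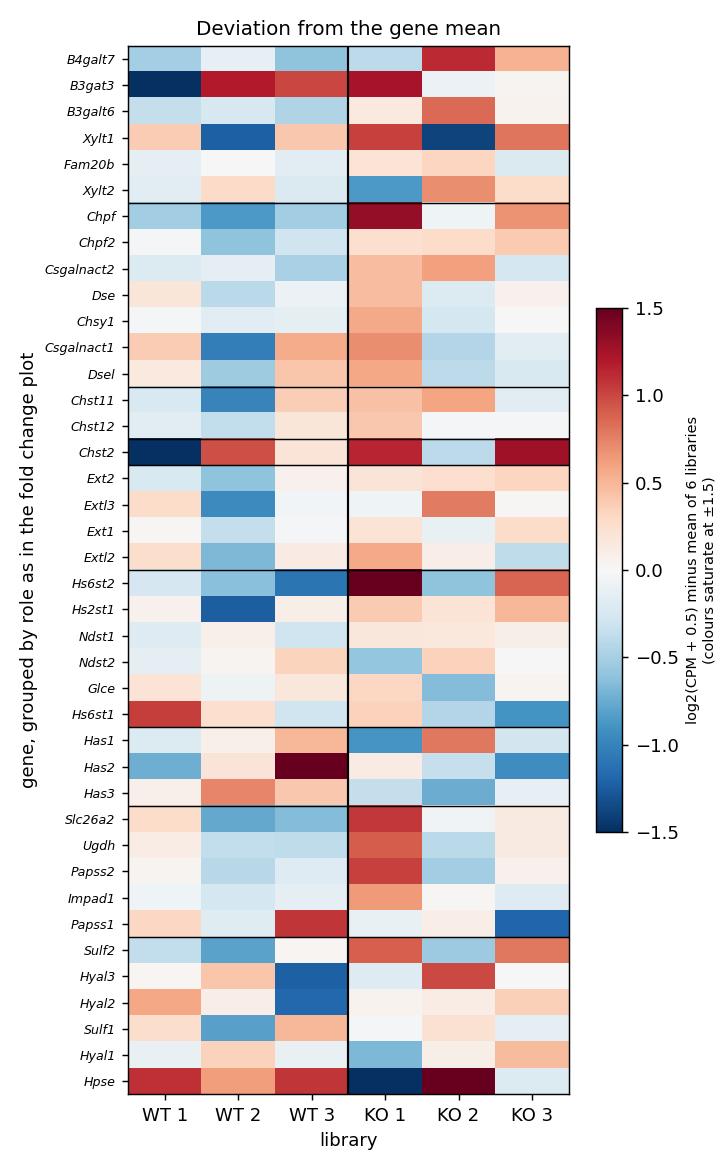
Deviation of each library from the gene's mean over 6 libraries on the log2(CPM + 0.5) scale, for 40 genes in rows grouped by role and libraries in columns (red above, blue below, colours saturating at 1.5). The KO 1 column is red for most chondroitin and precursor genes, and the wild type 2 column is mostly blue.

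**Figure D3:**
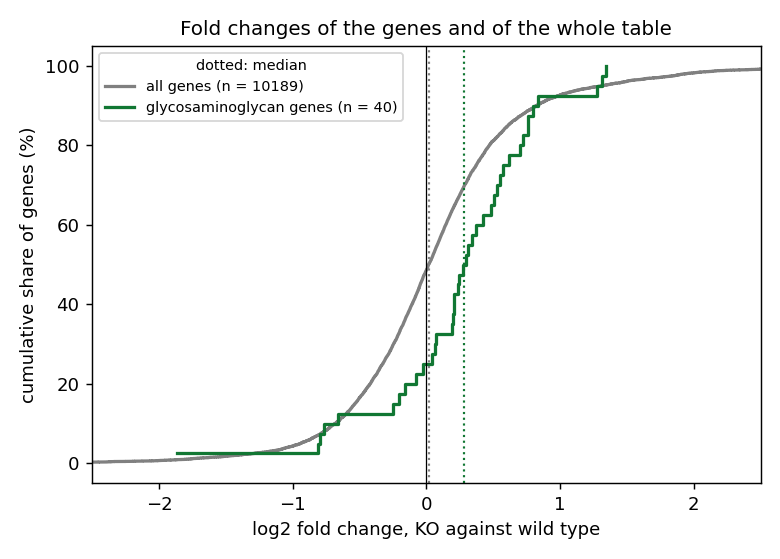
Cumulative share of genes (%) by log2 fold change of KO against wild type, for the 40 glycosaminoglycan genes (green) and all 10189 genes (grey), with dotted lines at the medians. The green curve lies to the right of the grey through the middle of the range, with medians of 0.28 and 0.02.

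The chains of chondroitin, dermatan and heparan sulfate share a short linkage region, and all 6 measured genes of this group had higher means on the log2(CPM + 0.5) scale in KO (5 of 6 in CPM), with none past an unadjusted limma p of 0.05. Xylt1 and Xylt2 attach the first xylose, B4galt7, B3galt6 and B3gat3 add the next sugars, and Fam20b phosphorylates the xylose. B3galt6 had 6.28, 6.86 and 5.86 CPM in wild type 1, 2 and 3 and 9.16, 15.2 and 8.56 CPM in KO 1, 2 and 3. Its groups did not overlap, although its counts were small (9 to 31 reads), and its log2 fold change was 0.70 (SE 0.50, adjusted p = 0.602 by limma), 0.46 without KO 2. Xylt2, highest of the group per length, had 18.2, 25.1 and 17.6 CPM in wild type and 11.1, 33.8 and 25.1 CPM in KO, with KO 1 the lowest and KO 2 the highest of all 6 libraries. Xylt1, which holds a seed match, had 19.5, 6.09 and 19.9 CPM in wild type and 30.9, 5.39 and 26.3 CPM in KO. Wild type 2 and KO 2 were its low libraries, and the genotypes overlapped. B3gat3, also with a seed match, had 0, 11.4 and 9.97 CPM in wild type and 11.8, 4.41 and 4.89 CPM in KO. Wild type 1 had 0 reads of it, below a floor of 3 reads or 1.88 CPM that covers counting error only, and without that library its log2 fold change turned from 0.80 to −0.70. In CPM its means were 7.13 ± 6.22 and 7.04 ± 4.15 (SD, n = 3), and edgeR gave a log2 fold change of 0.010. B4galt7 (0.83, SE 0.53, and 0.48 without KO 2) and Fam20b (0.21, SE 0.24, and 0.10 without KO 2) are the remaining genes of the group, by log2 fold change.

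Of the 7 measured genes that build the chondroitin and dermatan chain, 6 had higher means on the log2(CPM + 0.5) scale in KO (5 of 7 in CPM), and 2 of these, Chpf and Chpf2, were at an unadjusted limma p below 0.05. Chpf and Chpf2 encode polymerizing factors that work with the chondroitin synthase Chsy1, and Csgalnact1 and Csgalnact2 add the first N-acetylgalactosamine that commits a chain to chondroitin. Chpf (mm10, chromosome 1, 75474569 to 75479307) had 8.80, 6.86 and 8.79 CPM in wild type 1, 2 and 3 and 32.8, 12.2 and 20.8 CPM in KO 1, 2 and 3. Each KO library lay above each wild-type library, and KO 1 lay well above KO 2. The KO mean of 22.0 ± 10.3 CPM (SD, n = 3) stood against 8.15 ± 1.12 CPM (SD, n = 3) in wild type, which gave a log2 difference of 1.28 (SE 0.44, adjusted p = 0.341 by limma). Without KO 1 the log2 fold change of Chpf was 0.94 and its unadjusted limma p was above 0.05. Chpf2 (chromosome 5, 24586741 to 24594556) had 33.3, 22.1 and 27.6 CPM in wild type and 40.5, 41.2 and 44.7 CPM in KO. Its KO libraries lay close together and above all of wild type, with a log2 fold change of 0.62 (SE 0.25, adjusted p = 0.418 by limma). Chpf2 holds a seed match, and 2466 of its 5588 exon bases overlap Smarcd3 on the opposite strand, whose reads cannot be told apart from its own here. Smarcd3, a chromatin remodelling subunit gene, had a log2 fold change of 0.26 (SE 0.22). Leaving out any library other than wild type 1 took the unadjusted limma p of Chpf2 above 0.05, with log2 fold changes of 0.47 to 0.76 over the 6 such fits.

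The other 5 genes of the chondroitin and dermatan chain had no unadjusted p below 0.05 by limma over the 6 libraries, and Csgalnact2 had one by edgeR (log2 fold change 0.60). Csgalnact2 had 62.8, 66.3 and 51.6 CPM in wild type and 99.99, 112 and 60.6 CPM in KO, where KO 1 and KO 2 were high and KO 3 lay within the wild-type range (log2 fold change 0.55, SE 0.27, adjusted p = 0.482 by limma), and leaving out 1 library gave 0.38 to 0.81. Csgalnact1, its paralog, had 111, 41.1 and 125 CPM in wild type and 137, 62.2 and 75.9 CPM in KO. The libraries of each genotype differed more from each other than the genotypes did, and the log2 fold change by limma was 0.06 (SE 0.44), −0.44 without wild type 2. Dse, the most abundant member per length, had 192, 128 and 160.1 CPM in wild type and 234, 147 and 178 CPM in KO (0.21, SE 0.23, and 0.03 without KO 1 or 0.06 without wild type 2). The paralogous epimerase gene Dsel had −0.03 (SE 0.37) and Chsy1, the synthase gene itself, 0.20 (SE 0.26). Both overlapped between genotypes. Chsy3, the remaining synthase of the symbol list, has no row.

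Of the sulfotransferases of chondroitin and dermatan, Chst11 and Chst12, which sulfate N-acetylgalactosamine, have a row out of 8 annotated, and both had higher means in KO. Chst11 had 32.7, 19.0 and 49.8 CPM in wild type and 52.3, 58.3 and 34.3 CPM in KO. Its genotypes overlapped, with wild type 2 low and wild type 3 among the KO values (log2 fold change 0.58, SE 0.37, adjusted p = 0.571 by limma). It was 0.22 without wild type 2 and 0.90 without wild type 3. Chst12 had 0.24 (SE 0.35, and 0.10 without KO 1 or 0.11 without wild type 2). Chst2, a sulfotransferase gene for N-acetylglucosamine, the unit sulfated in keratan sulfate, had the lowest level of the 40 genes per length, with 0, 8.38 and 4.69 CPM in wild type and 9.54, 2.94 and 10.4 CPM in KO. It was at 0 reads in wild type 1 (floor 1.88 CPM), and its log2 fold change moved between 0.09 and 2.16 as each library was left out, lowest without wild type 1, and was 0.82 by edgeR.

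Genes that polymerize heparan sulfate had higher means in KO in 4 of 4 cases. Ext1 and Ext2 form the polymerase, and Extl2 and Extl3 act at the start of the chain. Ext2 (chromosome 2, 93661028 to 93822568) had 39.6, 30.5 and 48.7 CPM in wild type 1, 2 and 3 and 53.0, 55.4 and 58.1 CPM in KO 1, 2 and 3. The groups did not overlap, and the KO libraries lay close together, with means of 39.6 ± 9.09 and 55.5 ± 2.53 CPM (SD, n = 3) and a log2 fold change of 0.51 (SE 0.24, adjusted p = 0.478 by limma), 0.33 without wild type 2. Its partner Ext1 had 51.5, 39.6 and 49.8 CPM in wild type and 58.8, 47.0 and 61.8 CPM in KO, which overlapped (0.25, SE 0.23, and 0.13 without wild type 2). Extl3 had 0.49 (SE 0.40, and 0.13 without wild type 2 or 0.22 without KO 2) and Extl2 0.19 (SE 0.38).

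The enzymes that modify heparan sulfate had means on both sides, 3 of 6 higher and 3 of 6 lower in KO. Hs6st2 and Hs6st1 encode enzymes that sulfate the glucosamine of the chain at the same position, and Hs2st1 encodes the one that sulfates its uronic acid. Hs6st2 (chromosome X, 51387212 to 51681856) had 30.8, 23.6 and 17.0 CPM in wild type 1, 2 and 3 and 121, 24.0 and 67.9 CPM in KO 1, 2 and 3. KO 1 and KO 3 stood far above wild type while KO 2 lay inside it, so that the mean of 71.1 ± 48.8 CPM (SD, n = 3) in KO has an SD that is large against its distance from wild type (23.8 ± 6.89 CPM). The log2 fold change of Hs6st2 was 1.32 (SE 0.52, adjusted p = 0.402 by limma). Over the alternatives tried the adjusted p was 0.0757 to 0.656, lowest without KO 2, where the log2 fold change was 1.95. Without KO 1 it was 0.79. The unadjusted limma p was above 0.05 without KO 1, KO 3, wild type 2 or wild type 3. KO 2 was also the library with the highest summed macrophage markers (15114 CPM) and the lowest summed fibroblast markers (5147 CPM) and proliferation genes (780 CPM). The part of any of these in Hs6st2 was not tested.

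Hs6st1, which holds a seed match, had 20.1, 11.4 and 7.62 CPM in wild type and 12.2, 6.86 and 4.89 CPM in KO, from 8 to 32 reads. It overlapped between genotypes, and its log2 fold change of −0.66 (SE 0.55) had the other sign than that of Hs6st2 (−0.31 without wild type 1). Per kilobase, Hs6st2 was 1.09, 1.47 and 1.58 times Hs6st1 in wild type 1, 2 and 3 and 7.05, 2.48 and 9.85 times in KO 1, 2 and 3. All KO ratios were above all wild-type ratios, a comparison picked after the values were seen, and the KO 3 ratio rests on 8 reads of Hs6st1. Ratios of the other pairs tried, Papss2 over Papss1 and Sulf2 over Sulf1 among them, overlapped between genotypes. The rest of these pairs were Has3 over Has2, Has3 over Has1, Chst11 over Chst12 and Csgalnact1 over Csgalnact2. Hs2st1 had 28.9, 11.4 and 29.3 CPM in wild type and 36.3, 31.8 and 39.1 CPM in KO. The groups did not overlap, wild type 2 was the low library, and the log2 fold change was 0.72 (SE 0.38, adjusted p = 0.503 by limma), 0.29 without wild type 2.

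Ndst1 and Ndst2 replace the acetyl group of the glucosamine with sulfate, the step that opens the chain to the later sulfotransferases. Ndst1, with a seed match, had 19.5, 23.6 and 18.2 CPM in wild type and 25.2, 25.0 and 23.9 CPM in KO. Its groups did not overlap, but the gap between wild type 2 and KO 3 was under 1 read, which is worth 0.762 CPM in wild type 2, and the log2 fold change was 0.28 (SE 0.27, adjusted p = 0.708 by limma). Ndst2 had −0.16 (SE 0.43). Glce, the epimerase gene of heparan sulfate and the gene with the most seed matches among those printed, had 48.4, 39.6 and 46.9 CPM in wild type and 51.9, 26.5 and 42.8 CPM in KO. KO 2 was low and the other KO libraries lay near wild type (−0.20, SE 0.29). All 7 annotated genes of the Hs3st family have no row.

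**Figure D4:**
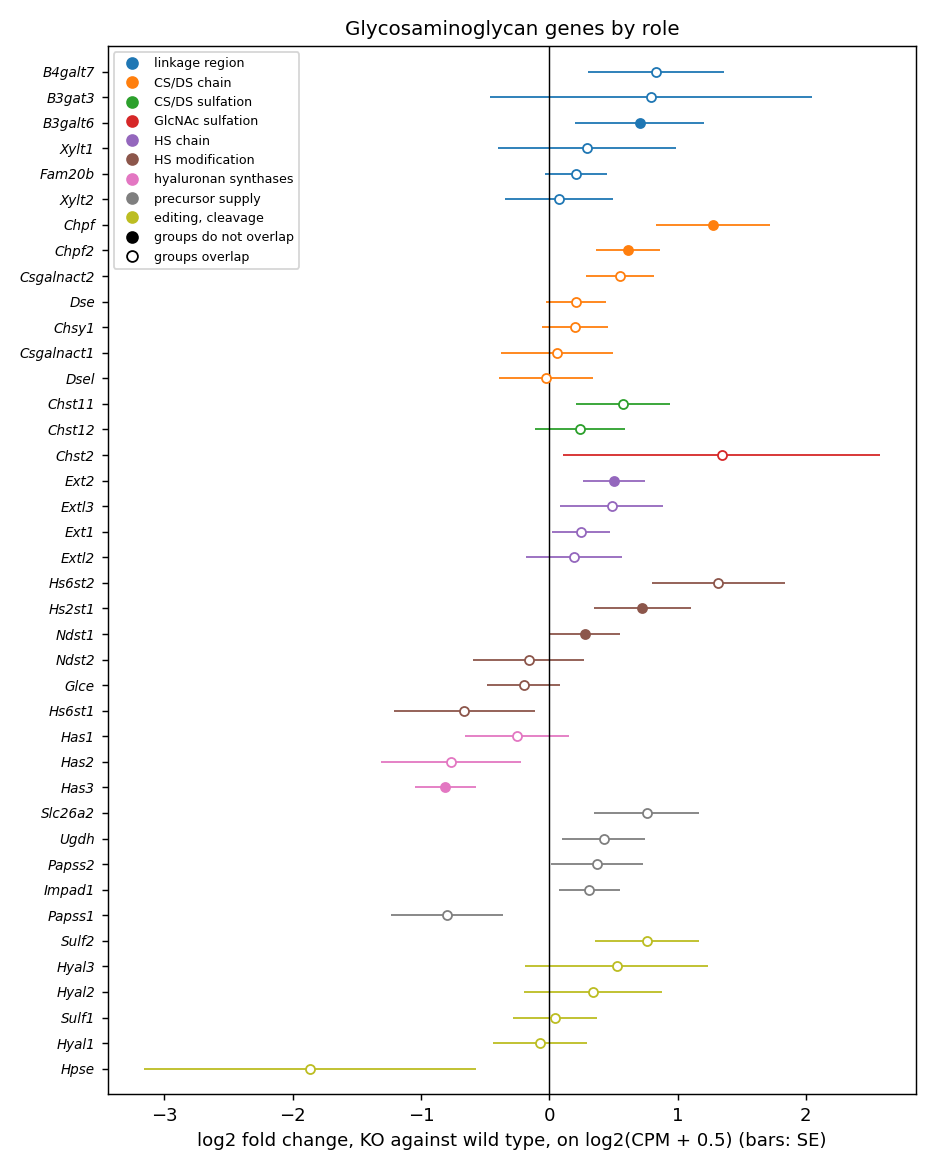
Log2 fold change of KO against wild type for 40 genes (points, bars SE), coloured and ordered by role, with filled points where the 3 KO libraries lie all above or all below the 3 wild-type libraries. The 7 filled points are B3galt6, Chpf, Chpf2, Ext2, Hs2st1 and Ndst1 to the right of 0 and Has3 to the left.

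The hyaluronan synthases were the role group in which every measured gene had a lower mean in KO (3 of 3). Has3 (chromosome 8, 106870242 to 106884566) had 140.1, 220.2 and 176 CPM in wild type 1, 2 and 3 and 103, 79.4 and 122 CPM in KO 1, 2 and 3. Every KO library lay below every wild-type library, with means of 179 ± 40.1 and 102 ± 21.5 CPM (SD, n = 3) and a log2 fold change of −0.81 (SE 0.24, adjusted p = 0.294 by limma), the smallest p of the 40 genes. Its unadjusted limma p stayed below 0.05 as each of the 6 libraries was left out, and its log2 fold change at −0.97 to −0.64. Of its 6380 exon bases 352 overlap Chtf8, a gene of sister chromatid cohesion, on the opposite strand, so reads of the pair cannot be told apart here. Chtf8 had 24.5, 21.3 and 17.6 CPM in wild type and 40.8, 24.0 and 39.8 CPM in KO, where KO 1 and KO 3 were above all of wild type and KO 2 was not (log2 fold change 0.68, SE 0.31).

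Has2, the main synthase of many connective tissue cells, had 23.9, 45.7 and 130.2 CPM in wild type and 43.5, 31.4 and 20.8 CPM in KO. Wild type 3 alone was high, the remaining 5 libraries overlapped, and the log2 fold change of −0.77 (SE 0.55, adjusted p = 0.602 by limma) was −0.11 without that library. Its antisense neighbour Has2os, which shares 182 exon bases with it, held more reads than Has2 in 6 of 6 libraries: 151, 162 and 668 CPM in wild type and 85.9, 45.6 and 86.9 CPM in KO. For Has2os each wild-type library lay above each KO library, and its log2 fold change was −1.86 (SE 0.53, adjusted p = 0.283 by limma). Has1 had 43.3, 52.6 and 70.9 CPM in wild type and 26.7, 86.7 and 41.0 CPM in KO, with KO 2 the highest and KO 1 the lowest of the 6 (−0.25, SE 0.40, and 0.13 without KO 1). Summed over the 3 genes, the level was 207, 318 and 378 CPM in wild type 1, 2 and 3 and 174, 197 and 184 CPM in KO 1, 2 and 3. The summed levels of the genotypes did not overlap, with wild type 1 (207 CPM) just above KO 2 (197 CPM). The sum contains Has3, the gene of smallest p, and the high Has2 value of wild type 3. No background is given for it, so it adds nothing to the values of the single genes.

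**Figure D5:**
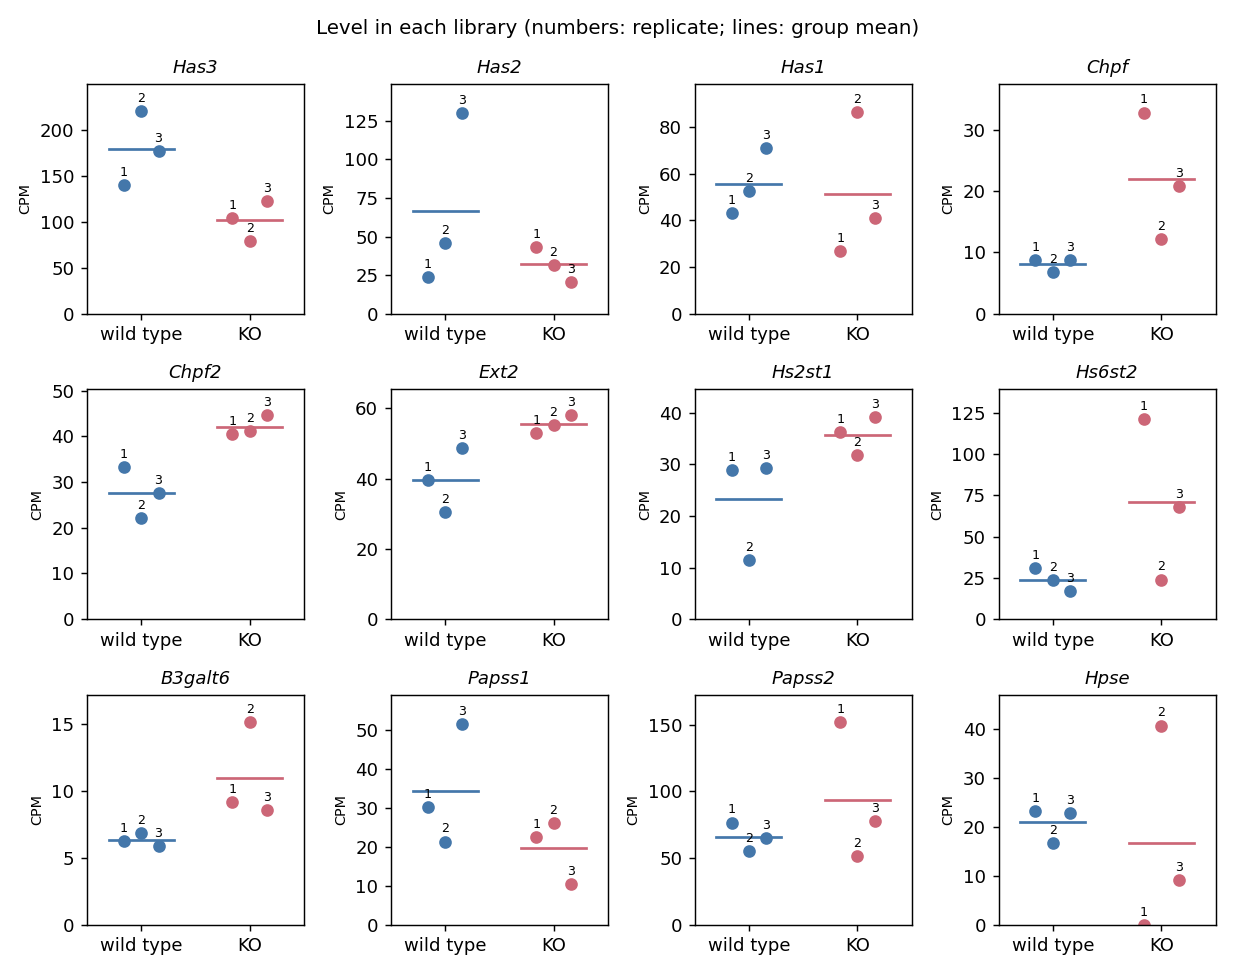
CPM in each library for 12 genes (points, numbered by replicate; lines are group means; each panel has its own axis from 0). Has3 is lower in each KO library, Chpf, Chpf2, Ext2, Hs2st1 and B3galt6 are higher in each, and for the remaining 6 genes the genotypes overlap.

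Sugar and sulfate donors were supplied by 5 measured genes, 4 of them with higher means in KO. Ugdh makes the UDP-glucuronate that all but keratan chains need, Papss1 and Papss2 make PAPS, Slc26a2 imports sulfate, and Impad1 removes the by-product of sulfation. Papss2, with a seed match, had 76.6, 55.6 and 65.1 CPM in wild type and 152, 51.4 and 77.7 CPM in KO. Only KO 1 stood out, and the log2 fold change of 0.37 (SE 0.36) was −0.04 without it. Slc26a2 had 27.0, 12.95 and 14.1 CPM in wild type and 46.9, 21.6 and 24.5 CPM in KO (0.76, SE 0.41, adjusted p = 0.506 by limma), again with KO 1 highest (0.42 without it). Ugdh had 84.2, 60.2 and 59.8 CPM in wild type and 146, 58.8 and 85.6 CPM in KO, with KO 1 the highest library (0.42, SE 0.33, and 0.08 without KO 1). KO 1 was the highest library for Impad1 as well (0.31, SE 0.24, and 0.07 without KO 1).

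Papss1 was the supply gene with a lower mean in KO: 30.2, 21.3 and 51.6 CPM in wild type and 22.5, 26.0 and 10.4 CPM in KO, which overlapped (log2 fold change −0.80, SE 0.44, adjusted p = 0.514 by limma) and gave −0.40 without KO 3. Per kilobase, Papss2 was 2.09, 2.14 and 1.03 times Papss1 in wild type 1, 2 and 3 and 5.53, 1.63 and 6.13 times in KO 1, 2 and 3. KO 1 and KO 3 were above wild type in this ratio and KO 2 was not, the same libraries that were high for Hs6st2. The pair was picked after its values were seen.

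Among enzymes that edit or cleave finished chains, 4 of 6 had higher means on the log2(CPM + 0.5) scale in KO (3 of 6 in CPM). None passed an unadjusted limma p of 0.05, while limma-voom put Hpse below it (lower in KO). Sulf1 and Sulf2 remove sulfate from heparan sulfate outside the cell. Sulf1, the more abundant, had 105, 49.5 and 124 CPM in wild type and 85.9, 103 and 79.5 CPM in KO, with the genotypes overlapping (0.04, SE 0.33). Sulf2 had 28.9, 21.3 and 38.1 CPM in wild type and 70.2, 25.5 and 65.5 CPM in KO (0.76, SE 0.41, adjusted p = 0.506 by limma). KO 1 and KO 3 were again high and KO 2 lay within wild type, and the log2 fold change was 1.23 without KO 2 and 0.51 without KO 1. Per kilobase Sulf2 was above Sulf1 in KO 1 and KO 3 (ratios of 1.57 and 1.58) and below it in the other 4 libraries (0.476 to 0.829).

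Hpse encodes heparanase, which cuts heparan sulfate and is known from leukocytes and platelets. It had 23.2, 16.8 and 22.9 CPM in wild type and 0, 40.7 and 9.18 CPM in KO. KO 1 had 0 reads, below a floor of 3 reads or 1.14 CPM, while KO 2 had the highest value of the 6 libraries. The macrophage marker Lyz2, a lysozyme gene, had 594, 12165 and 1757 CPM in KO 1, 2 and 3 and 3326 to 4139 CPM in wild type. The order of the KO libraries was the same for Hpse, Lyz2 and every other macrophage and leukocyte marker of the list except Mrc1 (63.7, 212 and 250 CPM in KO 1, 2 and 3). A link between Hpse and macrophage RNA was not tested. The log2 fold change of Hpse was −1.86 (SE 1.29, adjusted p = 0.595 by limma) and −0.09 without KO 1, and −0.35 by edgeR. On the linear scale the mean was 21.0 ± 3.64 in wild type and 16.6 ± 21.3 CPM in KO (SD, n = 3). The hyaluronidase genes Hyal1, Hyal2 and Hyal3 lie side by side on chromosome 9 (mm10, 107567945 to 107587359), and Hyal1 and Hyal3 share 159 exon bases on the same strand, so that reads could be split between them. The log2 fold changes of Hyal1, Hyal2 and Hyal3 were −0.07, 0.34 and 0.53 (SE 0.37, 0.54 and 0.72), from 4 to 45 reads per library.

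The 7 genes with a seed match had log2 fold changes of 0.62 (Chpf2), 0.80 (B3gat3), 0.37 (Papss2), 0.29 (Xylt1), 0.28 (Ndst1), −0.20 (Glce) and −0.66 (Hs6st1), 5 higher and 2 lower in KO, with a median of 0.29. In the 27 glycosaminoglycan genes with an annotated 3′ UTR and no match to bases 2 to 7 the median was 0.24, with 20 higher and 7 lower, and 4 more genes match bases 2 to 7 only. Over the whole table the medians were 0.04 for the 1711 genes with a match and 0.03 for the 6222 without. Limma called 0 of the 7 at an adjusted p below 0.05, and 1 (Chpf2) was higher and 0 lower at an unadjusted p below 0.05. Of the 1711 genes with a match in the whole table, it called 0 higher and 1 lower. At the unadjusted p, 90 of the 1711 were higher and 97 lower.

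Genes of the pathway outside the symbol list were read from 3 lists. Of 15 lysosomal enzymes and factors that degrade the chains, all measured, 12 had higher means in KO with a median log2 fold change of 0.58, and 5 had an unadjusted limma p below 0.05 with a higher mean and 1 with a lower mean (backgrounds 4.64% and 6.4%). None passed the adjusted limma threshold with all 6 libraries. Naglu, a glucosaminidase gene of heparan sulfate breakdown, had 8.80, 12.95 and 8.79 CPM in wild type and 21.4, 28.4 and 19.6 CPM in KO (1.15, SE 0.35, adjusted p = 0.304 by limma). Its KO libraries lay above all of wild type. The galactosidase gene Glb1 and the sulfatase activator gene Sumf1 differed by 0.82 (SE 0.26) and 0.77 (SE 0.26) on the log2 scale, also without overlap, and KO 2 was the highest library for these 3 genes. Hexa, a hexosaminidase subunit gene, was also higher at an unadjusted p below 0.05 (0.58, SE 0.23). The lower gene was Idua, the iduronidase gene (−1.87, SE 0.77, adjusted p = 0.422 by limma), which shares exon bases with Slc26a1 on the opposite strand. It had 101, 137 and 113 CPM in wild type and 9.92, 145 and 20.8 CPM in KO, with KO 1 and KO 3 low and KO 2 the highest of the 6. Without KO 2, the library that went against the lower mean, its log2 fold change was −2.97 and it passed the adjusted limma threshold (adjusted p = 0.0223). More genes of the whole table were also called in that fit than with all 6 libraries. Without KO 1 the log2 fold change of Idua was −1.07, and edgeR gave −0.997.

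Of 19 measured genes of 21 in the list of precursor synthesis and transport, 12 had higher means in KO (median 0.07). At an unadjusted limma p below 0.05, 0 were higher and 2 lower (backgrounds 4.64% and 6.4%). These 2 were Gnpnat1, an enzyme gene of UDP-N-acetylglucosamine synthesis (−0.74, SE 0.20, adjusted p = 0.281 by limma), and the sulfate transporter gene Slc26a1 (−0.45, SE 0.19). Of their exon bases 3878 and 141 overlap Styx and Idua on the opposite strand. Pxylp1, the phosphatase gene that reverses Fam20b, had 0.89 (SE 0.47), and Gne, a sialic acid synthesis gene, −0.40 (SE 0.25).

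Of 26 measured genes of 40 in the list of core proteins and hyaluronan-binding proteins, 19 had higher means in KO (median 0.41), with an unadjusted p below 0.05 by limma for 8 of these and for 1 of the lower genes (backgrounds 4.64% and 6.4%). Limma called 0 of them and DESeq2 4 higher (Gpc1, Fmod, Lum and Acan), against 0.412% of all genes. KO 1 was the highest library for 14 of the 26 (53.8%, against 20.7% of all genes). The median deviation from the gene means was 0.57 in KO 1, against −0.0064 and −0.048 in KO 2 and KO 3. KO 1 also had the highest summed chondrocyte markers (7052 CPM), and their part in this list was not tested. Gpc1, a glypican core protein that carries heparan sulfate, had 40.2, 66.3 and 65.1 CPM in wild type and 119, 97.5 and 133 CPM in KO, which did not overlap (1.05, SE 0.25, adjusted p = 0.273 by limma). It shares 977 exon bases with Ankmy1 on the opposite strand. Sdc3, a syndecan core protein, had 116, 107 and 80.3 and 169, 155 and 182 CPM (0.75, SE 0.20). Fmod and Lum, keratan sulfate proteoglycans, had 1.27 (SE 0.34) and 0.92 (SE 0.25). The gene that was lower was Vcan, the large chondroitin sulfate proteoglycan that binds hyaluronan, with 204, 196 and 515 CPM in wild type and 60.3, 199 and 73.4 CPM in KO (−1.51, SE 0.49, adjusted p = 0.323 by limma). Wild type 3 was its highest library, as for Has2, and the groups overlapped through KO 2.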

How the data were processed

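RNA of cultured chondrocytes from 3 KO and 3 wild-type samples was sequenced from stranded total-RNA libraries, per the labels' protocols. Tools in the submitters' processing notes are HISAT2 2.1.0, StringTie 1.3.5, cutadapt 1.18, bcl2fastq and edgeR, with the genome build mm10. The strand counted is not stated there. The authors deposited 1 filtered table of TMM-normalized CPM, a signal per gene in which the second-highest of the 6 values was 7.35 or more. All its values are whole multiples of 1 step per library (0.382 to 0.762 CPM, tolerance 0.001 reads), which gave the recovered reads.

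Log2(CPM + 0.5) was tested with limma 3.58.1 (trend, two-sided, no covariate) over all 10189 genes with Benjamini-Hochberg adjustment, called at an adjusted p below 0.05. EdgeR 4.0.16, DESeq2 1.42.0 and limma-voom on recovered reads were alternatives. The limma, edgeR and DESeq2 fits were also run on simulated counts, with the same dispersion for all genes and no library that departed from its group. The libraries here are not so even, so that run does not show how well the fits perform on them. The fold changes of the genes are on the log2(CPM + 0.5) scale. It shrinks the folds of low genes, but where 1 library is at 0 (B3gat3, Chst2 and Hpse) they are larger in size than those of edgeR. Exon lengths, overlaps and 3′ UTRs came from GENCODE M21, which matched 10118 genes and all 40 glycosaminoglycan genes. With no row for the deleted gene, the genotypes were taken from the labels unchecked. Replicates of a genotype differed by more than counting noise.

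The genes and lists were chosen with earlier results of these data known. Values per library are given by rule for genes with an unadjusted p below 0.05, for genes whose groups do not overlap with a log2 fold change of at least 0.5 in size, for the gene of highest level per length in each role and for genes with a seed match. In other lists the 4 genes of smallest p are named, except 1 that is not reported here. Values of Csgalnact1, Csgalnact2, Ext1, Has1, Has2, Slc26a2, Ugdh, Papss1, Sulf2, Hpse, Acan, Hexa, Idua, Vcan, Lyz2 and the genes on opposite strands, and the ratios of paralogs, were chosen for the text after their values were seen.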

Additional observations from a re-analysis of the deposited data

How the results depend on the processing

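No glycosaminoglycan gene was called in any of the alternatives, and the median log2 fold change stayed positive (0.18 to 0.42). The count at an unadjusted p below 0.05 (3 higher, 1 lower) was 5 higher with CPM over the total without Rn45s, Lars2 and Mir6236, 1 higher and 2 lower with voom, 2 lower with array weights, 7 higher and 4 lower with wild type 1 and KO 2 both left out, 0 lower among genes without an opposite-strand exon, and 1 to 5 higher and 1 to 3 lower as each library was left out. Groups that did not overlap numbered 16 above and 5 below without wild type 1 and KO 2, and 7 to 14 above and 1 to 3 below as each library was left out. Such counts can only stay or rise with fewer libraries. Shares of all genes without overlap in fewer libraries, or at an unadjusted p below 0.05 in the alternative fits, are not given here. The counts are therefore not read as results about the genes. Over all genes limma called 0 higher and 1 lower. This became 2 lower with a pseudocount of 2 CPM, 7 higher and 3 lower without trend, 1 higher and 3 lower with robust fitting, 2 lower with edgeR, 42 higher and 73 lower with DESeq2, 2 lower without wild type 1 and KO 2, and 0 to 7 higher and 0 to 25 lower as each library was left out, most without KO 2. The causes were not tested. The replicate numbers do not pair the samples: deviations of same-numbered samples correlated at 0.018, 0.065 and −0.056, and not every sample correlated best with its own number. With the replicate block, 5 genes were higher at an unadjusted p below 0.05 and 0 of all genes were called lower.

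The sign of the log2 fold change reversed in 36 of 748 pairs of a gene and a setting, in 14 of the 40 genes. With edgeR it was −0.0073 for Csgalnact1 and −0.057 for Sulf1, which was −0.052 with array weights and −0.038 with DESeq2. Dsel was 0.035 with CPM over the total without the 3 abundant RNAs and 0.0053 with DESeq2, and Hyal1 was 0.014 with array weights. Without wild type 1 and KO 2, the values were 0.13 for Glce, 0.23 for Dsel, −0.32 for Xylt2 and −0.45 for B3gat3. As each library was left out, the range was −0.44 to 0.36 for Csgalnact1, −0.36 to 0.30 for Sulf1, −0.044 to 0.73 for Papss2, −0.032 to 0.38 for Chsy1, −0.71 to 0.13 for Has1, −0.41 to 0.073 for Glce and −0.33 to 0.18 for Dsel. It was −0.10 to 0.43 for Extl2, −0.26 to 0.53 for Xylt2, −0.33 to 0.24 for Hyal1, −0.24 to 1.06 for Xylt1, −0.37 to 0.088 for Ndst2, −0.17 to 0.71 for Hyal2 and −0.70 to 1.59 for B3gat3. Depth limits the low genes most: the 40 genes had a median of 28.5 reads in wild type 2, the shallowest library.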
